A study of Mus musculus with 4 samples.

Results

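The genes described here are 10 members of the Bcl-2 family, the proteins that decide whether the outer mitochondrial membrane is opened during apoptosis. They are Bcl2l15, Bcl2, Bcl2l1, Mcl1, Bax, Bak1, Bid, Bik, Bcl2l11 and Bbc3, taken by name. A gene's level is that of its brightest probe, out of 14399 genes tested in all. Bcl2l15 was selected on its signals on these same arrays, being higher in the knockout, so its difference is a description and carries no test here. The other 9 were chosen as its relatives. RNA came from the small intestine of wild-type mice, called control, and of Cyp3a-/- mice that lack the Cyp3a cluster, called KO. There were 2 arrays for each genotype, from 2 experiments that the labels describe as independent and done on different animals. Strain, sex, age, diet, treatment and any pooling of animals on an array are not given in the sources used here. P-values and intervals therefore measure the spread between arrays, which may be partly technical. The model used, limma, takes part of each gene's spread from all tested genes.

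In the intrinsic pathway of apoptosis, Bax and Bak1 proteins form pores that release cytochrome c, which assembles the apoptosome and activates caspases. Bcl2, Bcl2l1 (Bcl-xL) and Mcl1 hold them in check, and the BH3-only proteins Bid, Bik, Bcl2l11 (Bim) and Bbc3 (Puma) bind those guards or the pore formers in answer to stress. In the small intestine the pathway removes damaged crypt cells. Bcl2l15, also called Bfk, is a divergent relative known from the digestive tract, with a weak death-promoting activity when overexpressed.

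Bcl2l15 lies on chromosome 3 of the mouse, as does Mcl1, the member whose protein is made and destroyed fastest. RefSeq's table of assembly GRCm38.p6 held promoter windows for 9 of the 10 members, and Bik had no entry. The 250 bases before the start of Bcl2l15 (chr3:103832446-103832695, plus strand) and of Mcl1 (chr3:95658471-95658720, plus strand) are shown because they are unlike in base composition. Both run 5′ to 3′, with each CpG in capitals:
Bcl2l15: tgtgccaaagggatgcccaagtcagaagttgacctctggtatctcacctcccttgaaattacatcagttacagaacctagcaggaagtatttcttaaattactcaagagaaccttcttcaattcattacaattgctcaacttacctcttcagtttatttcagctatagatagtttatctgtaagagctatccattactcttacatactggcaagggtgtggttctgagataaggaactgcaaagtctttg
Mcl1: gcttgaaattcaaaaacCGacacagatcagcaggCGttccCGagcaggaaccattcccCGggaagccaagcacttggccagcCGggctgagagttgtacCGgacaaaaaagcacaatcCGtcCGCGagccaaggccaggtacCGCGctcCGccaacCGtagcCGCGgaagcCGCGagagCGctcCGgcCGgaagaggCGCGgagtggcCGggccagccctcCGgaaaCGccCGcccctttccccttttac

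The Bcl2l15 window held 0 CpG and 38.8% G or C, where 7.87% of all 32851 windows in the table held 0 CpG and the median window held 6. Mcl1 had 26 CpG and 64.4% G or C, and the window of Bcl2, the founding survival gene of the family, had 36 CpG. Bcl2l15 was not alone in this: 1 of the 3 windows of Bcl2l1 also held 0 CpG, with 48.4% G or C, and its others held 11 and 12. A GC box (GGGCGG, searched on both strands) was found in 9 of the members' 14 windows, which belong to 6 genes, and in 32.7% of all windows. It was not found for Bcl2l15. A TATA box (TATAAA, searched on both strands), present in 12.4% of all windows, was not found in any member's window. These are matches of letters in 250 bases and show no binding.

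The deletion was visible on the arrays. Cyp3a11, a major drug-oxidising P450 of mouse gut and liver, had levels of 5.05 and 5.78 in control 1 and 2 and of -5.77 and -4.52 in KO 1 and 2, where it was not well above background. A level here is the log2 signal after subtraction of its array's 75th percentile, and levels of different probes are not compared. Between 55.1% and 64.4% of probes were well above background on an array, and no spot was saturated. The label of the tissue was borne out by enterocyte markers, all 12 of which were well above background on all 4 arrays. KO 1 stood apart from the other arrays: its correlation across genes was 0.966 with control 1, 0.962 with control 2 and 0.948 with KO 2, against 0.979 between the controls.

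Bcl2l15 was higher in both knockout arrays than in both control arrays. Its levels were 0.19 in control 1, -0.51 in control 2, 1.32 in KO 1 and 1.42 in KO 2. The genotypes did not overlap, and the knockout arrays lay closer together than the controls. The means were -0.16 ± 0.50 in control and 1.37 ± 0.07 in KO (SD, n = 2 each), a 2.90-fold difference (log2 difference 1.53, SE 0.33 in limma's fit over all genes). Relative to the control mean, Bcl2l15 stood 1.48 higher in KO 1 and 1.59 higher in KO 2, and without KO 1, the array that stood apart, the log2 difference was 1.59. Control 2 and KO 1 shared a slide and its scan, and within that slide the log2 difference was 1.83. It was 1.18 without control 2 and 1.88 without control 1. Of tested genes, 0.0694%, 10 with Bcl2l15 itself, had a mean difference at least as large upward. Bcl2l15 was selected on this difference, so its rank is no evidence for it.

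**Figure D1:**
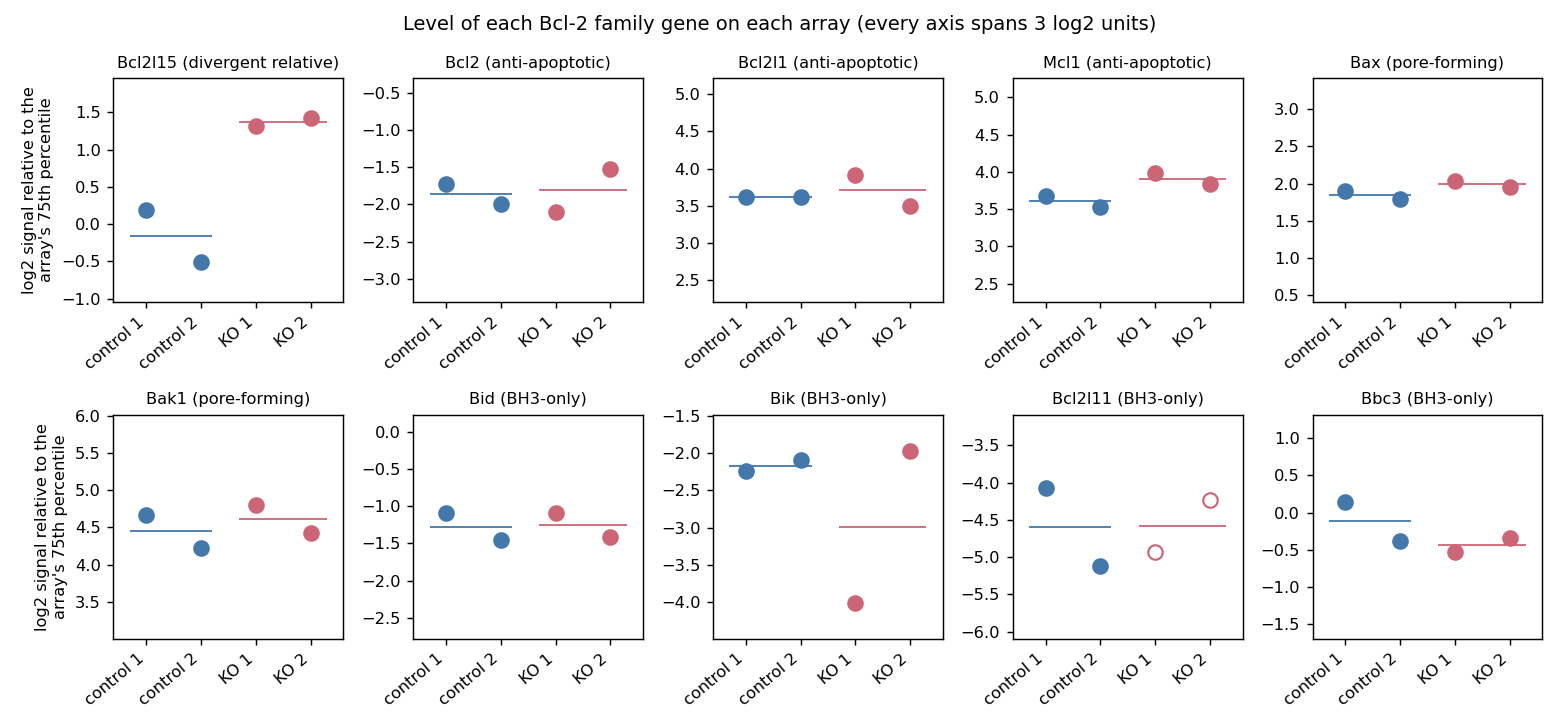
Level of each of the 10 Bcl-2 family genes on each array (log2 signal relative to the array's 75th percentile; points are arrays, lines are the means of 2 arrays, open points are not well above background). Bcl2l15 separates by genotype, with controls at 0.19 and -0.51 and KO at 1.32 and 1.42, and Bik is low on KO 1 alone, at -4.01.

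Before scaling, the signal of this Bcl2l15 probe was 257 and 249.4 in control 1 and 2 and 805.5 and 470.2 in KO 1 and 2. KO 2 was the dimmest array, with a 75th percentile of 175 against 226 in control 1. On KO 2 the spot carried a background outlier flag, with a local background of 21. With all spots so marked left out, the difference rests on KO 1 alone among the knockouts and was 1.49.

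The 2 other Bcl2l15 probes were dim and went the same way. One, for the same RefSeq transcript as the probe used, had levels of -6.42 and -7.20 in control 1 and 2 and of -4.40 and -5.31 in KO 1 and 2. The other, for the second RefSeq transcript of the gene, had levels of -5.88 and -5.90 in control and of -4.25 and -4.04 in KO. On both probes KO 1 was the 1 array of 4 well above background, so the order of the genotypes rests on signals near the detection limit. No fold is given for either. These probes read the same RNA as the first and are no independent sample.

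The guards Bcl2, Bcl2l1 and Mcl1 showed small differences, and none passed the threshold. Mcl1, a short-lived survival protein on which many epithelial cells depend, had levels of 3.68 and 3.53 in control 1 and 2 and of 3.98 and 3.84 in KO 1 and 2. The genotypes did not overlap on that probe, with a log2 difference of 0.31 (SE 0.27, 95% interval -0.36 to 0.97). A second Mcl1 probe overlapped, with levels of 0.11 and 0.45 in control and of 1.25 and -0.17 in KO, and a difference of 0.26. So the Mcl1 probes gave like means from unlike arrays.

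Bcl2l1 had levels of 3.61 and 3.61 in the controls and of 3.92 and 3.50 in KO 1 and 2. The knockout arrays thus lay on either side of the controls, with a log2 difference of 0.10 (95% interval -0.61 to 0.81). Its second probe, for another transcript, had a difference of 0.18. Bcl2 had levels of -1.73 and -2.001 in control and of -2.10 and -1.52 in KO, with a difference of 0.06 (95% interval -0.81 to 0.92) and full overlap.

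The pore formers differed little. Bax had levels of 1.90 and 1.79 in control 1 and 2 and of 2.03 and 1.95 in KO 1 and 2. The knockout arrays were above the controls by less than limma's error, with a log2 difference of 0.14 (SE 0.26, 95% interval -0.48 to 0.77). Bak1 had levels of 4.67 and 4.22 in control and of 4.79 and 4.42 in KO. Its genotypes overlapped, with a difference of 0.16 (95% interval -0.63 to 0.96). Within the shared slide the differences were 0.23 for Bax and 0.58 for Bak1.

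Among the BH3-only genes, Bik, which encodes a death activator resident in the endoplasmic reticulum, was low on 1 array. Its levels were -2.24 and -2.10 in control 1 and 2, -4.01 in KO 1 and -1.97 in KO 2. KO 2 was the highest of the 4 arrays and KO 1 the lowest, so the genotypes overlapped. The log2 difference was -0.82 (SE 0.67, 95% interval -2.46 to 0.82), with a difference of -1.92 within the shared slide and of 0.20 without KO 1. Without KO 2 the difference was -1.84 and rested on KO 1 alone among the knockouts, in a fit where KO 1 is assumed to vary like the controls. Bik was well above background on all 4 arrays.

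Bbc3, the p53-induced activator Puma, had levels of 0.14 and -0.38 in control and of -0.53 and -0.34 in KO. The arrays overlapped narrowly, with a log2 difference of -0.31 (95% interval -1.07 to 0.44). Bid, which caspase-8 cleaves to link death receptors to mitochondria, had levels of -1.09 and -1.46 in control and of -1.10 and -1.42 in KO. Its difference was 0.02 (95% interval -0.76 to 0.80), and each genotype had 1 higher and 1 lower array. Bcl2l11, which encodes Bim, was near the detection limit. Its levels were -4.07 and -5.12 in control and -4.93 and -4.23 in KO, where it was not well above background on either array, and no fold is given. A second Bcl2l11 probe was not well above background on any array.

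Read together, 8 of the 10 members had positive differences, where 56.2% of all tested genes did. Limma called 0 of the 10, beside 0.0417% of all genes (6 of 14399, all lower), and at an unadjusted p under 0.05 there was 1, Bcl2l15, beside 0.444% of all genes. Arrays did not overlap in 3 members, all higher in KO (Bcl2l15, Mcl1 and Bax), beside 8.65% of all genes in that direction and 14.7% in either. Since Bcl2l15 entered by this contrast, nothing is read from these counts. The median log2 difference of the 9 others was 0.06, against 0.04 over all genes. Without KO 2, which leaves 1 knockout array, the log2 difference was -1.84 for Bik and 1.48 for Bcl2l15, the latter on the values that chose it. In each 2-against-2 comparison of a single gene, the smallest p an exact two-sided permutation test allows is 0.333.

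Of the 71 other genes of the death pathways listed for comparison, 65 were tested and limma called 0, beside 0.0417% of all genes. At an unadjusted p under 0.05 there were also 0. Their median difference was 0.09, 7 did not overlap upward (beside 8.65% of all genes) and 2 downward (beside 6.08%). Casp8, the initiator caspase of death receptors, had levels of 0.80 and 0.94 in control and of 2.24 and 0.46 in KO 1 and 2. Its difference was 0.48, and it was 1.37 without KO 2, where it rested on KO 1 alone.

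**Figure D2:**
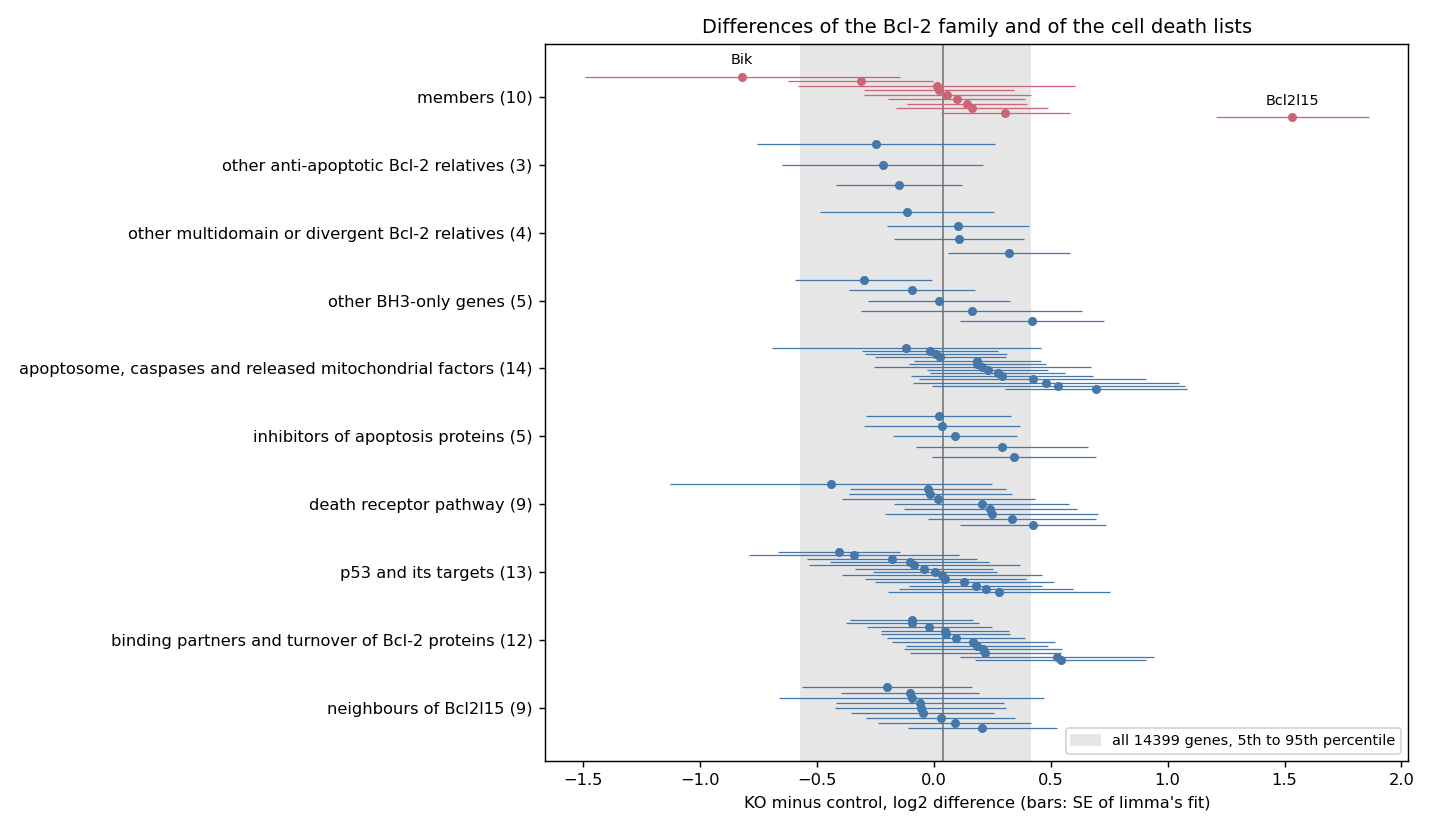
KO minus control log2 difference of each tested gene with the SE of limma's fit, for the members, 8 cell death lists and the neighbours of Bcl2l15 (number tested in parentheses; grey band, 5th to 95th percentile of all 14399 genes; grey line, their median). Bcl2l15 at 1.53 lies outside the band, and Bik at -0.82 has the widest error bar of the members.

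No other relative of the family was called by limma, and several varied between the knockout arrays. Of the multidomain or divergent relatives, 3 of 4 had positive differences, with a median of 0.10. Bok, a Bax-like protein, had levels of 2.15 and 2.22 in control and of 2.59 and 2.42 in KO without overlap, and a difference of 0.32 (95% interval -0.31 to 0.95). Bcl2l13 had a difference of 0.11. Of 5 tested BH3-only genes, Bad did not overlap upward (difference 0.42, 95% interval -0.33 to 1.17) and Bmf did not overlap downward (difference -0.30). Pmaip1, the p53 target Noxa, had levels of 1.83 and 1.85 in control and of 2.70 and 1.3 in KO. The 3 tested anti-apoptotic relatives all had negative differences, with Bcl2l2 (Bcl-w) at -0.15 and Bcl2a1d at -0.22. Bcl2a1 genes are close copies, so their probes may share signal.

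Downstream of the mitochondria, 12 of 14 genes of the apoptosome, caspases and released factors had positive differences, with a median of 0.22. Apaf1, the apoptosome scaffold, had levels of -1.78 and -1.91 in control and of -0.52 and -2.11 in KO 1 and 2. Cycs, cytochrome c, had levels of 5.20 and 5.14 in control and of 6.27 and 4.92 in KO. Both were thus high on KO 1 and lowest on KO 2. Relative to control, the list's median was 0.51 in KO 1 and -0.16 in KO 2.

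The list medians of the caspase inhibitors and of the death receptors split the same way. All 5 inhibitors of apoptosis proteins had positive differences, with a median of 0.09, and relative to control their medians were 0.20 in KO 1 and -0.13 in KO 2. Birc5 (survivin), which also serves cell division, had a difference of 0.34 and Xiap, the direct caspase inhibitor, 0.29. Birc5 did not follow the split, with levels of 3.88 and 3.28 in control and of 3.66 and 4.18 in KO 1 and 2. Birc6 was above both controls on both knockout arrays by little, with a difference of 0.09 (95% interval -0.55 to 0.73). Of 9 death receptor genes 6 were positive, with a median of 0.56 in KO 1 and -0.26 in KO 2. The TRAIL receptor Tnfrsf10b did not overlap, with a difference of 0.42 (95% interval -0.33 to 1.18), and the adaptor Tradd had a difference of 0.33. Among binding partners of Bcl-2 proteins 9 of 12 were positive, with a median of 0.13. Itpr1, a calcium channel bound by Bcl2, had a difference of 0.54, the Bid receptor Mtch2 0.53 and the Bak1 partner Vdac2 0.17.

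p53 and its targets had a median of 0.00, with 7 of 13 positive. Trp53 itself had levels of -1.51 and -2.30 in control and of -2.40 and -1.58 in KO. Trp53inp1 did not overlap downward (difference -0.41, 95% interval -1.04 to 0.23), and Phlda3 had a difference of -0.34. No tested gene of the list was called.

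Markers of cell types moved between arrays beside these values. Relative to control, the enterocyte list had a median of 0.96 in KO 1 and -0.35 in KO 2, and its summed signal was 752 to 1183 in control and 848 to 1489 in KO. Summed signals are sums over the list of unlogged signals, each divided by the array's 75th percentile. Smooth muscle markers, 8 of 8 well above background throughout, had medians of -0.94 in KO 1 and 0.68 in KO 2, with summed signals of 175 to 202 in control and 99.9 to 304 in KO. Both of these lists changed sign between KO 1 and KO 2. Bcl2l15 stood 1.48 above the control mean in KO 1 and 1.59 above it in KO 2. The goblet, Paneth, enteroendocrine, tuft, fibroblast, T cell, gastric surface and pancreatic lists also changed sign. The remaining lists kept 1 sign on both knockout arrays. Crypt stem and cycling markers were above the control mean, with medians of 0.27 in KO 1 and 0.15 in KO 2. The controls lay at 0.20 and -0.20, so KO 2 was within their range. Of 7 tested, 5 had positive differences, while Ascl2 (-0.63) and Smoc2 (-0.40) had negative ones. The list's summed signal was 32.5 to 34.8 in control, 25.7 in KO 1 and 38.8 in KO 2. Below it were the lists of enteric neurons and glia (medians -0.76 and -0.18), B and plasma cells (-0.29 and -0.35), macrophages and dendritic cells (-0.12 and -0.41), endothelium (-0.28 and -0.13) and liver (-1.90 and -0.34). For the liver list, control 1 lay above and control 2 below both knockout arrays, so KO 1 and KO 2 were within the control range. In bulk tissue, fewer cells of a type and less RNA per cell cannot be told apart.

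Genes listed as markers of the stomach's surface mucous cells were also present, and unevenly. Their summed signal, over 6 of 6 genes, was 2062 to 2202 in control and 905 to 3605 in KO. Gkn3 (levels of 10 and 9.58 in control 1 and 2) and Tff2 (10.2 and 9.68) gave its largest terms on every array. The sum therefore says little of the other genes on the list, which differed between the controls. Muc5ac, a gel-forming gastric mucin, had levels of -3.41 and 2.94 in control 1 and 2 and of -4.02 and 3.48 in KO 1 and 2. Like Muc5ac, Gkn1, Gkn2 and Tff1 were higher in control 2 than in control 1, while Gkn3 and Tff2 were higher in control 1. All 6 were lowest in KO 1 and highest in KO 2 of the 4 arrays, where Bcl2l15 had levels of 1.32 and 1.42. Liver markers, of which 6 of 8 were tested, had a summed signal of 2.49 to 16.2 in control and 0.936 to 3.63 in KO, highest on control 1. The part of other cell types in the Bcl2l15 difference was not tested beyond these values.

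**Figure D3:**
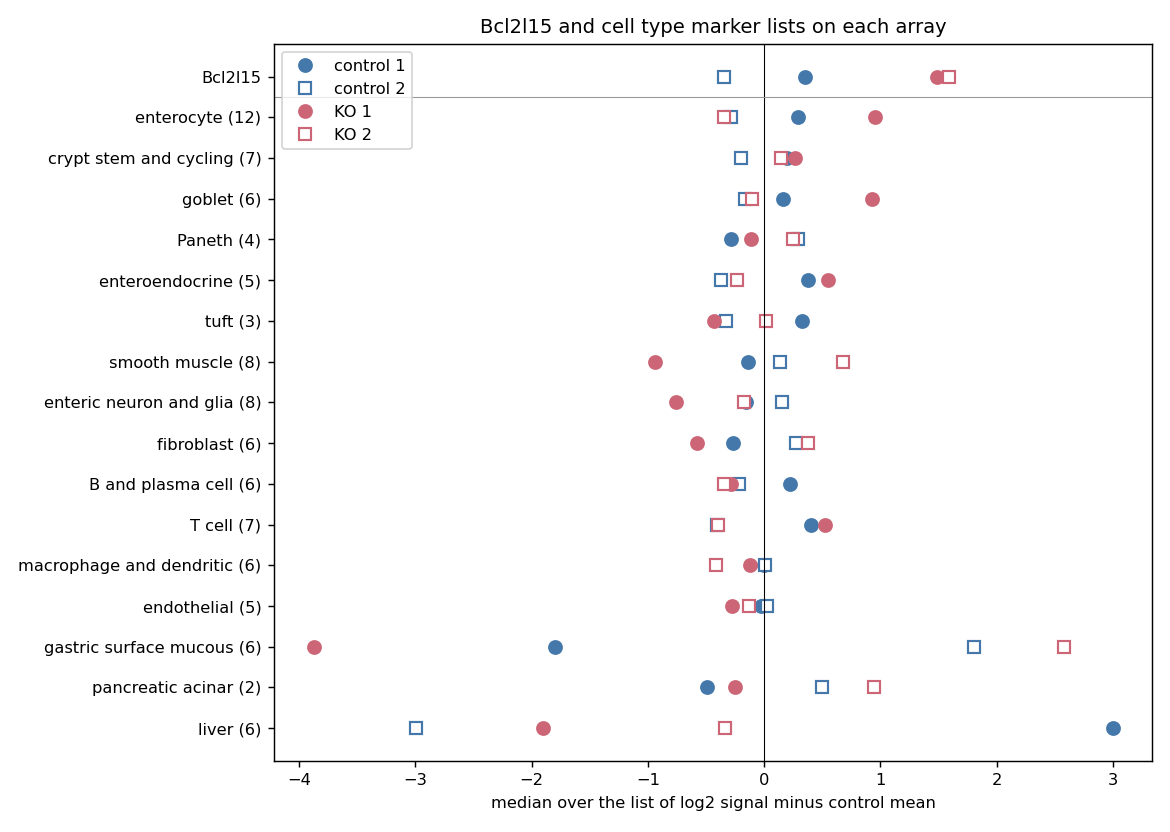
Bcl2l15 (top row) and the median of 16 cell type marker lists on each array, as log2 signal minus the control mean (number of tested genes in parentheses). In KO 1 and 2, Bcl2l15 sits at 1.48 and 1.59, the enterocyte list at 0.96 and -0.35 and the gastric surface list at -3.87 and 2.58. In control 1 and 2 the enterocyte list sits at 0.29 and -0.29 and the gastric surface list at -1.80 and 1.80.

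The genes beside Bcl2l15 on chromosome 3 had smaller differences. Of the 5 nearest protein-coding genes on each side in the RefSeq table, 9 of 10 were tested, with differences from -0.20 to 0.21. Arrays overlapped in all 9, beside 14.7% of all genes without overlap, a share at which few of 9 genes would be without it. Ap4b1, an adaptor complex subunit next to it on one side, had levels of 0.28 and 0.48 in control and of 0.89 and 0.28 in KO. Ptpn22, a lymphocyte phosphatase next to it on the other side, had levels of -2.04 and -2.38 in control and of -1.51 and -3.11 in KO. Both had a knockout array at or below the controls or within their range. The other 7 were Syt6, Olfml3, Hipk1, Rsbn1, Phtf1, Magi3 and Lrig2, with a median difference over all 9 of -0.06.

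The genes whose profile over the 4 arrays was nearest to that of Bcl2l15, each taken relative to its own mean, were Pik3cg, Wfdc10, Prss12, 9430069I07Rik and Gm10684. Their root mean square distances were 0.13, 0.14, 0.21, 0.21 and 0.28, where the median gene lay at 0.83 and 4 of 14392 genes lay within 0.25. Pik3cg, a phosphoinositide 3-kinase subunit of white blood cells, had levels of -3.95 and -4.49 in control and of -2.99 and -2.87 in KO. Prss12, a secreted serine protease, had levels of -3.43 and -4.04 in control and of -2.46 and -2.65 in KO. 9430069I07Rik and Gm10684 were not well above background on either control array. With 4 arrays such likeness is a description of these samples.

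**Figure D4:**
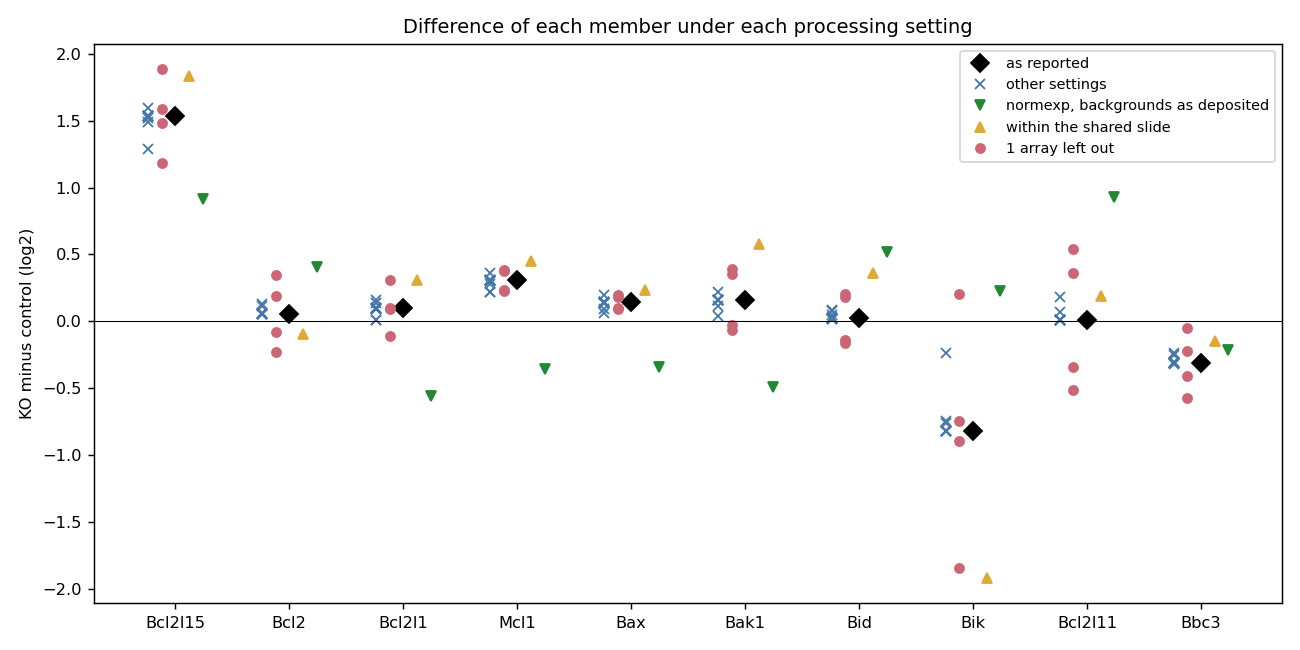
KO minus control log2 difference of each member as reported (diamonds) and under each other setting (red circles, 1 array left out; triangles up, within the shared slide; triangles down, normexp with backgrounds as deposited; crosses, all others). Bcl2l15 stays above 0, from 0.91 to 1.88, Bbc3 stays below 0, and the other 8 members each have values on both sides of 0.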

How the data were processed

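Per the labels, small intestinal RNA was labelled with Cy3 for 1-colour Agilent arrays, with 2 arrays per genotype. The submitters' processing notes name Agilent Feature Extraction 11.5.1.1. Each spot's deposited intensity is background-subtracted and not scaled between arrays, per the file headers. The authors' value table holds log2 values that matched the scanner values, scaled and centred on each probe's median over the 4 arrays, with a correlation of 1.00 over 39408 probes. Its column medians were 0.05 and -0.10 for control 1 and 2 and -0.11 and 0.12 for KO 1 and 2.

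Control spots were dropped, as were the 91 to 129 spots per array flagged as feature outliers. Each array's 75th percentile of log2 processed signal was subtracted. Of 39429 probes, 28025 matched a symbol in the RefSeq table of GRCm38.p6 by accession. Because the array was annotated on a different build, the table gave only names and neighbours. Probes not well above background on 2 or more arrays were dropped, and the brightest probe per gene gave 14399 genes. The comparison of genotypes used limma 3.58.1 in R 4.3.3 (lmFit, then eBayes with trend), Benjamini-Hochberg adjustment and a threshold of 0.05. On simulated data, recovery was required only for a change far larger than any member's, so power for smaller differences is not shown. Array number limits the precision.

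Named genes are all members, the 2 smallest p per pathway list, a few fixed genes, the neighbours of Bcl2l15 and the 5 nearest profiles. Casp8, Birc6, Ascl2, Smoc2 and the gastric genes are outside that rule and were named after their values were seen. A gene that the rule names is not reported here. The members and lists were chosen with earlier results of these data known. Alternatives were other background corrections, scalings, filters, probe rules and variance settings, the authors' table, leaving out each array, and a replicate block.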

Additional observations from a re-analysis of the deposited data

How the results depend on the processing

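The Bcl2l15 difference kept its direction under all 17 alternatives, and moved by more than the spread between arrays under 1 of them. With normexp on the backgrounds as deposited it was 0.91, and the number of genes called over all genes rose from 6 to 13. On KO 2, 6 spots had a local background above their signal (lowest signal minus background -37733), and the median corrected signal there was 483 against 86.3 to 102 on the other arrays. With backgrounds carrying an outlier flag replaced by the array's median, a setting chosen after seeing the data, the KO 2 median was 80.6, the Bcl2l15 difference 1.29 and the count 6. Leaving out each array in turn gave Bcl2l15 differences from 1.18 to 1.88, from 0 to 441 genes called, from 0 to 2 members and from 0 to 1 pathway genes. With probes required to be well above background on all 4 arrays 0 genes were called, since the filter removes the deleted cluster.

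With a replicate block, 32 genes and 1 member were called. That member is Bcl2l15, which was chosen by this contrast, so the call is no evidence for it. The labels do not say that the numbers pair samples. Deviations of control 1 and KO 1 from their group means had a correlation across genes of 0.05. With 2 arrays per genotype, that value cannot decide whether same-numbered arrays are paired. No degrees of freedom remain with slide as a term, so the within-slide value stands in its place. Signs of the other members were less stable: Bbc3 kept its sign under all 17 (Bcl2l11 had 16, since it is not tested with all 4 arrays required), while Bak1 and Bcl2 turned under 3 each, Bcl2l1, Bid, Bik and Bcl2l11 under 2 each, and Bax and Mcl1 under 1, the first normexp setting. No scaling moved the median of all genes by more than 0.1.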
